A study of Homo sapiens with 2 samples.

Results

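The insulin-like growth factor (IGF) system is described here through 10 of its genes: the binding proteins IGFBP1 to IGFBP7, the receptors IGF1R and IGF2R, and the insulin receptor INSR. They were chosen by name as a gene family and not by their values, though earlier results of these data were known. All 10 were found among the 58051 annotated genes in the count tables. RNA was sequenced from a TRPV3-overexpressing BEAS-2B line (TRPV3-OE, labelled passage 4 to 8) and from its BEAS-2B parent (parental, labelled wild type, passage 20 to 30). TRPV3 is a calcium-permeable cation channel, and BEAS-2B is an immortalised human bronchial epithelial line. Both lines were grown in LHC-9 medium on a collagen and fibronectin coat and harvested when confluent. Each group had 1 library, which leaves every difference below without a check across replicates and without a p-value. How the overexpressing line was made, and whether it is a single clone, is not given in the sources used here, and passage number cannot be told apart from genotype.

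IGF1 and IGF2 act through IGF1R, a receptor tyrosine kinase closely related to INSR, and the active receptors pass the signal to adaptor proteins, PI3-kinase and AKT. IGF2R, also the cation-independent mannose 6-phosphate receptor, binds IGF2 without signalling as a kinase and carries it to lysosomes. IGFBP1 to IGFBP6 bind IGFs with high affinity and so hold them back from the receptors or store them, while IGFBP7 binds IGFs weakly and is found in the extracellular matrix. In many epithelia IGFBP3 is also known for growth-restraining actions that need no IGF.

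The libraries held 17477953 counts on 20766 genes in TRPV3-OE and 17450658 counts on 20367 genes in parental cells. TRPV3 itself had 54077 counts in the TRPV3-OE library and 26 in the parental library, a log2 ratio of 10.97 (10.41 to 11.58). Levels are given as CPM, the counts of a gene per 1000000 scaled counts of its library, and every log2 ratio is TRPV3-OE over parental. Ranges in parentheses are exact 95% intervals that cover counting error only and hold no variation between replicates. PCR copies of 1 molecule could not be recognised in reads that carry no molecular identifier, so the intervals may be too narrow. A gene is called measured where its counts in both libraries add up to at least 100, which held for 11466 genes. A gene was called higher or lower where it differed at least 2-fold with an interval that excluded equal levels, which 5.31% of measured genes did upward and 5.35% downward. In bulk RNA, fewer cells of a type and less RNA per cell cannot be told apart.

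Of the 10 genes, 7 were measured, and 2 of these, IGFBP3 and IGFBP6, were lower by at least 2-fold in the TRPV3-OE library, while 0 of 7 were at least 2-fold higher. The 2 lower genes make 28.6% of the 7, beside the 5.35% of all measured genes named above. The median log2 ratio of the 7 was -0.69, beside -0.03 for all measured genes. IGFBP4, IGFBP7, IGF1R, IGF2R and INSR lay within 2-fold. IGFBP2 had 11 counts in all, and IGFBP1 and IGFBP5 had 0 counts in both libraries.

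**Figure D1:**
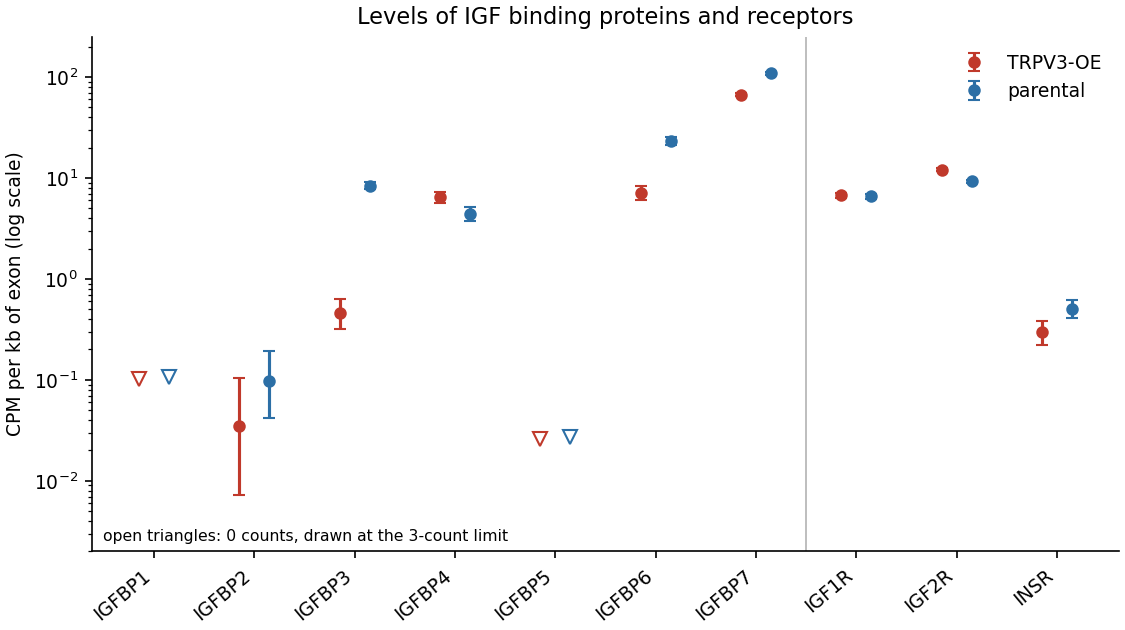
Level of each gene in CPM per kb of exon (log axis) in the TRPV3-OE library (red, left of each pair) and the parental library (blue, right), with exact 95% Poisson intervals; open triangles mark genes with 0 counts at the level of 3 counts. IGFBP7 is highest in both libraries, and IGFBP3 and IGFBP6 show the largest gaps among measured genes.

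IGFBP3 encodes the main carrier of IGFs in blood and is secreted by many epithelial cells. The gene (ENSG00000146674, chromosome 7, 45912245 to 45921874, minus strand, GRCh38.p7) had 37 counts in TRPV3-OE cells and 658 counts in parental cells. That is 2.08 CPM (1.46 to 2.86) in TRPV3-OE and 38.4 CPM (35.5 to 41.5) in parental, an 18.5-fold lower level with a log2 ratio of -4.21 (-4.73 to -3.73). The intervals of the libraries lie far apart. Of the 11466 measured genes 37 had a lower ratio than IGFBP3. The median log2 ratio of the 50 measured genes nearest to it on the chromosome was 0.16, and the log2 ratio of IGFBP3 minus this median was -4.37.

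The sequence upstream of a start site is shown for the binding protein gene with the largest drop (IGFBP3), for one with a higher value in TRPV3-OE (IGFBP4) and for one without counts (IGFBP5). Sequences are from RefSeq on GRCh38.p14, which held 8 of the 10 genes (not IGFBP1 and IGFBP7). Each window is 248 bases long, ends 2 bases before the annotated start, and lies at chr7:45921275-45921522 (minus strand), chr17:40443200-40443447 (plus strand) and chr2:216695552-216695799 (minus strand). The RefSeq start of IGFBP3 lies inside the span of the counted gene model given above, and so does its window. Capitals mark matches on either strand to one of 5 motifs. TATAAA and the variant TATATA are forms of the TATA element near the start site. The motif GGGCGG, which reads CCGCCC when it lies on the other strand, is the GC box bound by Sp1. The motif CACCTG, which reads CAGGTG when it lies on the other strand, is an E-box that ZEB and SNAI repressors bind, among other factors. The motif TGANTCA is that of AP-1. None of the matches shown overlap.
IGFBP3: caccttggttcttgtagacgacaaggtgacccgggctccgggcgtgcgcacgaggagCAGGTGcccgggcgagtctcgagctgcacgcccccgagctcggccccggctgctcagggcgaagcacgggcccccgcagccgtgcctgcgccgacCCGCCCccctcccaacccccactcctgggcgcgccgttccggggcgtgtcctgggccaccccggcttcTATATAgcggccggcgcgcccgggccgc
IGFBP4: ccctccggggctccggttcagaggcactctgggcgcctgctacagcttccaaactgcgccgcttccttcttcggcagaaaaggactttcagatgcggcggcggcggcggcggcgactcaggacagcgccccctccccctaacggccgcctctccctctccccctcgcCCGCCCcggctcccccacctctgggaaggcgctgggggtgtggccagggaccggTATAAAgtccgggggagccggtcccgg
IGFBP5: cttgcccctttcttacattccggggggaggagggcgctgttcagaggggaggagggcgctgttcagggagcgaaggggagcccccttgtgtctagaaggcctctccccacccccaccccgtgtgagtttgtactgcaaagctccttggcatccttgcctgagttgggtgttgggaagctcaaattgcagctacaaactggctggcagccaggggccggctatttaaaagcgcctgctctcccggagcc
The IGFBP3 window held 1 TATATA that begins 30 bases before the start, 1 GC box and 1 CACCTG E-box. The IGFBP4 window held 1 TATAAA that begins 29 bases before the start and 1 GC box. The IGFBP5 window had no exact match to the 5 motifs, and other forms of the TATA element were not searched for. TATATA was found in 3.72% of the 35116 RefSeq windows of the same length, TATAAA in 10.7%, GGGCGG in 42.4%, CACCTG in 17.5% and TGANTCA in 6.56%. CpG dinucleotides numbered 32 in the IGFBP3 window, 24 in IGFBP4 and 8 in IGFBP5, beside a median of 11 over all windows. A match describes the letters only, and binding of a factor was not measured.

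IGFBP6 encodes a binding protein that prefers IGF2 over IGF1. The gene (ENSG00000167779, chromosome 12, 53097436 to 53102345, plus strand) had 162 counts in TRPV3-OE cells and 508 in parental cells. The level was 9.10 CPM (7.75 to 10.6) in TRPV3-OE and 29.7 CPM (27.1 to 32.4) in parental, 3.26-fold lower, with a log2 ratio of -1.71 (-1.97 to -1.45). The 50 nearest measured genes had a median log2 ratio of 0.08. IGFBP6 therefore differed in the same direction as IGFBP3 but by less, and their intervals do not overlap.

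IGFBP7, the most abundant of the family in both libraries, encodes a secreted matrix protein that also goes by the name of angiomodulin. It had 2302 counts in TRPV3-OE and 3578 in parental cells (ENSG00000163453, chromosome 4, 57030773 to 57110385, minus strand). Its level was 129 CPM (124 to 135) in TRPV3-OE and 209 CPM (202 to 216) in parental. The log2 ratio of -0.69 (-0.77 to -0.62) is 1.62-fold lower, outside counting error and within the 2-fold limit. The 50 nearest genes had a median of -0.07. IGFBP7 shares 270 exon bases with POLR2B on the other strand, and the authors counted by strand.

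IGFBP4, an inhibitory binding protein that is cut by the protease PAPPA, was the only measured binding protein gene with a higher value in TRPV3-OE. It had 251 counts in TRPV3-OE and 167 in parental cells (ENSG00000141753, chromosome 17, 40443461 to 40457731, plus strand). That is 14.1 CPM (12.4 to 16.0) in TRPV3-OE and 9.75 CPM (8.33 to 11.3) in parental, with a log2 ratio of 0.53 (0.24 to 0.82), a 1.45-fold difference within the 2-fold limit.

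The 3 other binding protein genes were at or near the detection limit. IGFBP2, one of the main IGF carriers after IGFBP3, had 3 counts in TRPV3-OE and 8 in parental cells, a log2 ratio of -1.47 with an interval from -4.02 to 0.59 that holds no difference. IGFBP1, a liver and decidua product whose gene insulin represses, and IGFBP5, a binding protein that sticks to extracellular matrix, had 0 counts in both libraries. A count of 0 was read as a one-sided limit of 3 counts, which is 0.168 CPM in TRPV3-OE and 0.175 CPM in parental cells. IGFBP1 lies 18576 bases from IGFBP3 with 0 annotated genes between them, so 1 gene of this chromosome 7 pair had counts in both libraries and the other had 0. The chromosome 2 pair IGFBP2 and IGFBP5, 7668 bases apart and likewise with 0 genes between, had at most 8 counts in either library.

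**Figure D2:**
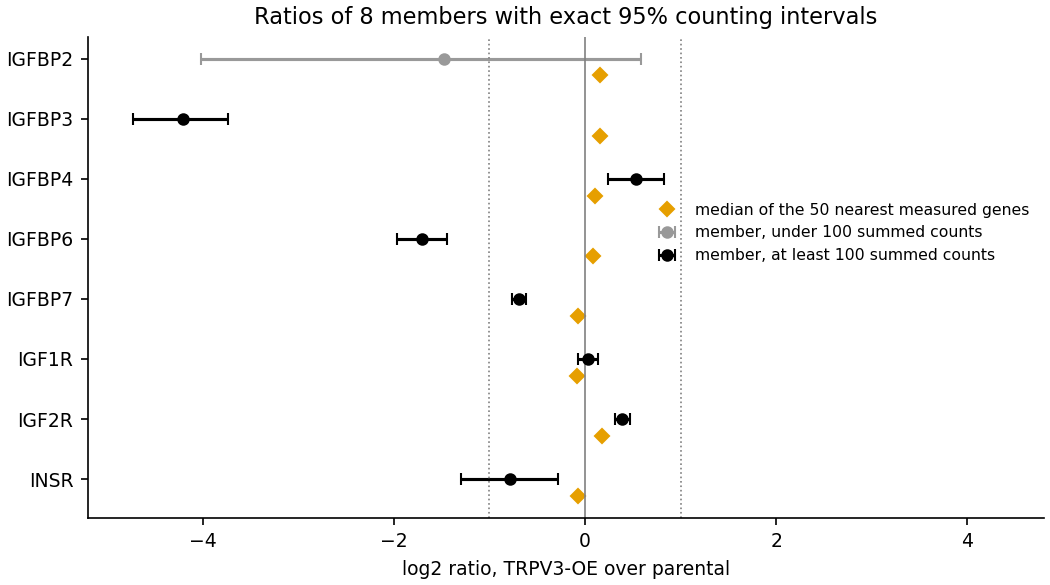
Log2 ratio (x axis) of the 8 genes with any count, with exact 95% counting intervals; black points have at least 100 summed counts, the grey point fewer, and diamonds give the median of the 50 nearest measured genes. IGFBP3 and IGFBP6 lie left of the dotted 2-fold line with their whole interval, and local medians run from -0.08 to 0.17.

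Levels of different genes were compared per kb of exon, where the length takes in all annotated exons of a gene. The transcripts present may be shorter, and the intervals do not cover that error, so the comparison between genes is rough. IGFBP7 led in both libraries with 67.0 CPM per kb in TRPV3-OE and 108 in parental. In TRPV3-OE it made up 82.7% of the summed level of the 7 binding protein genes, and in parental 75.0%. IGFBP6 contributed 8.78% in TRPV3-OE and 16.1% in parental. The share of IGFBP4 was 7.91% in TRPV3-OE and 3.07% in parental, and that of IGFBP3 was 0.561% in TRPV3-OE and 5.82% in parental. The summed level of the 7 genes was 81.0 CPM per kb in TRPV3-OE and 144 in parental.

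The order among the lesser members changed with it. IGFBP3 had 0.0709 times the level of IGFBP4 per kb in TRPV3-OE (0.0488 to 0.100) and 1.90 times its level in parental (1.60 to 2.26). IGFBP6 and IGFBP4 could not be ordered in TRPV3-OE, with a ratio of 1.11 (0.905 to 1.36), whereas in parental cells IGFBP6 had 5.23 times the level of IGFBP4 (4.38 to 6.27). Counts of the high-affinity group IGFBP1 to IGFBP6 summed to 453 in TRPV3-OE and 1341 in parental, a log2 ratio of -1.62 (-1.78 to -1.47). With IGFBP3 left out, the sums were 416 in TRPV3-OE and 683 in parental, a log2 ratio of -0.77 (-0.95 to -0.59).

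**Figure D3:**
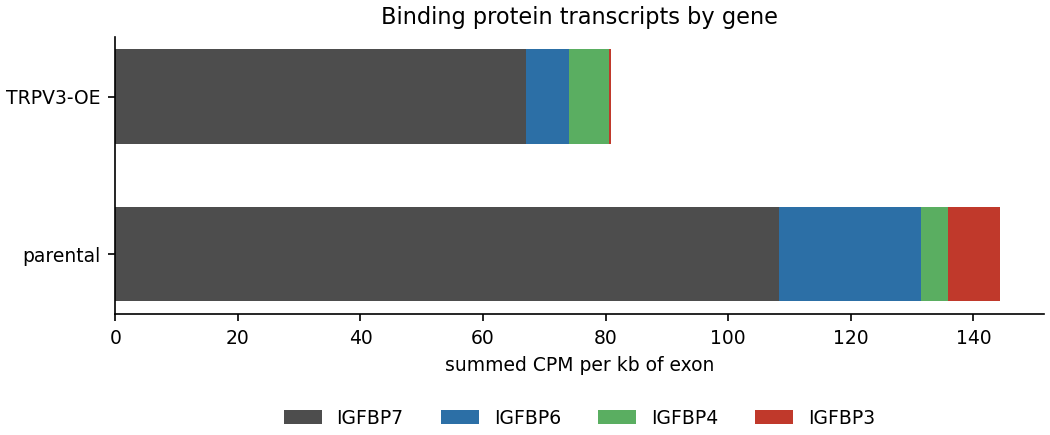
Summed CPM per kb of exon (x axis) of IGFBP7, IGFBP6, IGFBP4 and IGFBP3 in the TRPV3-OE library (upper bar) and the parental library (lower bar); IGFBP2 is too low to be seen. The IGFBP3 segment is 0.455 CPM per kb in TRPV3-OE and 8.40 in parental cells.

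Among the receptors, none passed 2-fold. IGF1R (ENSG00000140443, chromosome 15, 98648971 to 98964530, plus strand) had 1616 counts in TRPV3-OE and 1522 in parental cells. These are 90.7 CPM (86.4 to 95.3) in TRPV3-OE and 88.9 CPM (84.5 to 93.4) in parental, and the log2 ratio of 0.03 has an interval from -0.07 to 0.13 that holds no difference. Within counting error the IGF1R levels of the libraries were near equal, without a check across replicates.

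IGF2R (ENSG00000197081, chromosome 6, 159969099 to 160113507, plus strand) had 3205 counts in TRPV3-OE and 2354 in parental cells. Its level was 180 CPM (174 to 186) in TRPV3-OE and 137 CPM (132 to 143) in parental, with a log2 ratio of 0.39 (0.31 to 0.47). The 50 nearest genes had a median of 0.17, and 0.21 remained after its subtraction. This was the highest receptor level per kb in both libraries, 12.1 CPM per kb in TRPV3-OE and 9.22 in parental.

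INSR (ENSG00000171105, chromosome 19, 7112255 to 7294034, minus strand) was the least abundant receptor, with 55 counts in TRPV3-OE and 91 in parental cells. The level of 3.09 CPM (2.33 to 4.02) in TRPV3-OE and 5.31 CPM (4.28 to 6.52) in parental gives a log2 ratio of -0.78 (-1.29 to -0.28). The difference exceeds counting error, but the interval is wide because the counts are few. Per kb, IGF1R exceeded INSR 22.7-fold in TRPV3-OE (17.4 to 30.3) and 12.9-fold in parental (10.5 to 16.2), and these intervals do not overlap. Gene counts do not separate the INSR isoforms with and without the alternative exon.

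**Figure D4:**
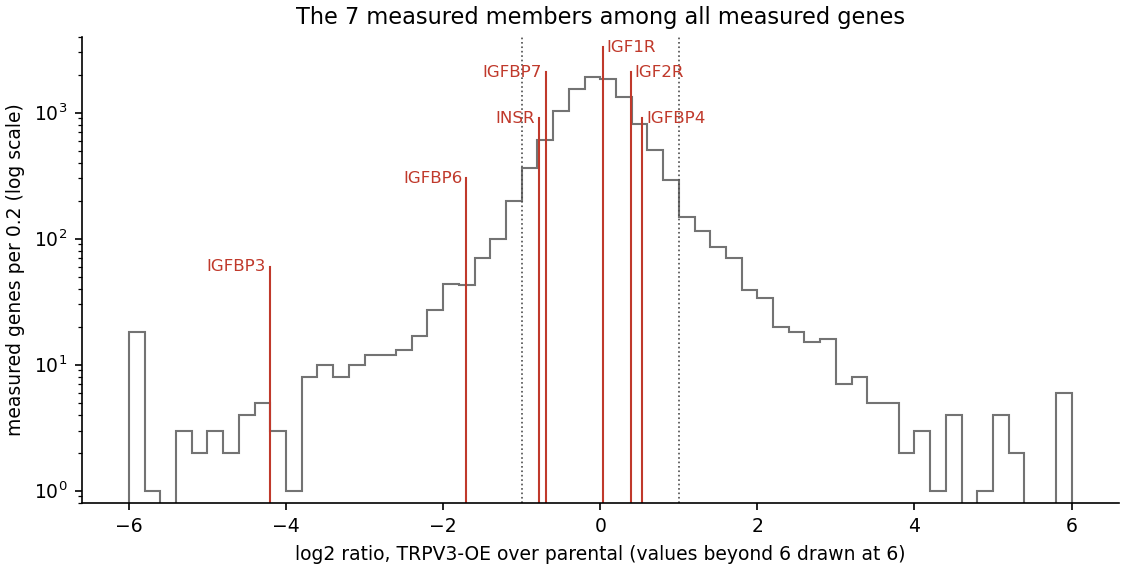
Number of measured genes (log axis) by log2 ratio, in steps of 0.2, as a grey outline, with the 7 measured genes of the family as red lines; dotted lines mark 2-fold. IGFBP3 at -4.21 lies in the sparse lower tail, and 5 of the 7 lie between the dotted lines.

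Of the ligands, IGF1, IGF2 and the insulin gene INS had 0 counts in both libraries, as did the orphan receptor gene INSRR. IGFALS, the subunit that completes the circulating complex, had 1 count in TRPV3-OE and 0 in parental, and IGFBPL1 had 6 in TRPV3-OE and 7 in parental. Reads in exon bases that other annotated genes share on the same strand were left out of the counts, which concerns 21.9% of the exon bases of IGF2 and 31.7% of those of INS.

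**Figure D5:**
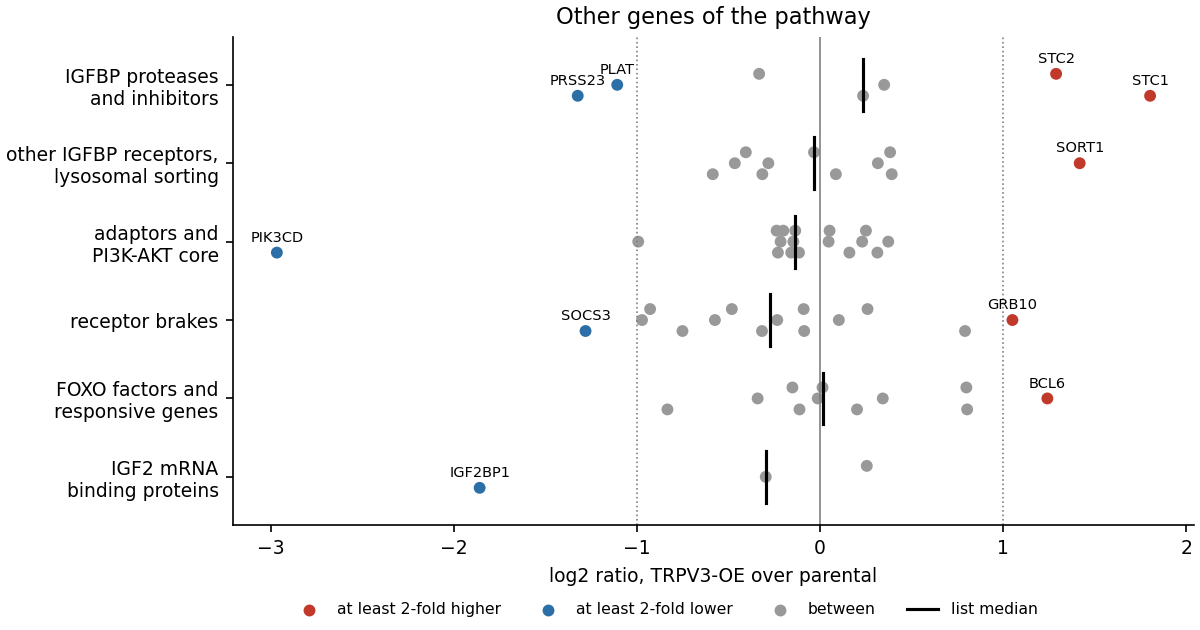
Log2 ratio (x axis) of the measured genes in 6 lists of pathway genes; red points are at least 2-fold higher and blue points at least 2-fold lower in TRPV3-OE, grey points lie between, and black bars are list medians. STC1 and STC2 lie at the right and PIK3CD at the left.

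In the list of IGFBP proteases and their inhibitors, 2 of 7 measured genes passed 2-fold upward and 2 downward. The shares were 28.6% each, beside 5.31% of all measured genes upward and 5.35% downward. The median log2 ratio was 0.23, beside -0.03 for all measured genes. The higher genes were the stanniocalcins, secreted glycoproteins that inhibit PAPPA. STC1 had 798 counts in TRPV3-OE and 220 in parental cells, a log2 ratio of 1.80 (1.59 to 2.02), and STC2 had 1827 counts in TRPV3-OE and 719 in parental cells, a log2 ratio of 1.29 (1.16 to 1.42). PAPPA itself had 5 counts in TRPV3-OE and 9 in parental cells. The lower genes were PRSS23 and PLAT. The serine protease gene PRSS23, whose action on binding proteins is not certain, had 1121 counts in TRPV3-OE and 2699 in parental. PLAT, tissue plasminogen activator, had 560 in TRPV3-OE and 1161 in parental. The log2 ratios were -1.32 for PRSS23 and -1.11 for PLAT, and PLAT stood at -0.99, just inside 2-fold, after subtraction of its neighbours.

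Of the adaptors and the PI3-kinase and AKT genes reported here, 0 of 17 measured were higher and 1 lower (median -0.14). The 1 lower gene is 5.88% of the 17, beside 5.35% of all measured genes, of which 5.31% were higher. The lower gene was PIK3CD, the delta catalytic subunit best known from leukocytes, with 23 counts in TRPV3-OE and 173 in parental cells, a log2 ratio of -2.97 (-3.66 to -2.33). AKT1, with a higher level per kb than AKT2 in both libraries, was at -0.99, and at -0.22 after subtraction of its neighbours on chromosome 14, while AKT2 was at 0.05. TSC1 of the complex that restrains mTORC1 was at 0.37, and at -0.07 after subtraction of its neighbours. The docking protein gene GAB1 was at 0.31, and at 1.02 after subtraction of its neighbours on chromosome 4. The receptor substrates IRS1 and IRS2, named after their values were seen, had log2 ratios of -0.14 and 0.16.

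Genes that restrain the receptors had 1 of 14 measured members higher and 1 lower (median -0.28). Each is 7.14% of the 14, beside 5.31% of all measured genes higher and 5.35% lower. The adaptor gene GRB10, which inhibits both receptors, had 644 counts in TRPV3-OE and 299 in parental cells (log2 ratio 1.05), or 0.88, inside 2-fold, after subtraction of its neighbours. The cytokine-signalling inhibitor SOCS3 had 80 counts in TRPV3-OE and 187 in parental cells (log2 ratio -1.28). The ubiquitin ligase gene NEDD4 was at -0.97 and SOCS2 at -0.93, both within 2-fold. After subtraction of their neighbours NEDD4 was at -1.24 and SOCS2 at -1.03, and SOCS3 at -1.01.

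Among other receptors for binding proteins and the genes of mannose 6-phosphate sorting, where IGF2R works, 1 of 11 was higher and 0 lower (median -0.03). The higher gene is 9.09% of the 11, beside 5.31% of all measured genes higher and 5.35% lower. The sorting receptor gene SORT1 had 3501 counts in TRPV3-OE and 1260 in parental cells, a log2 ratio of 1.42. It lies in a stretch of chromosome 1 whose 50 nearest genes had a median of 0.71, and its ratio minus that median was 0.71. NAGPA, GGA3 and GNPTAB had log2 ratios of -0.59, -0.47 and -0.41, or -0.03, -0.17 and -0.25 after subtraction of their neighbours. FOXO factors and genes that respond to them when insulin signalling is low also had 1 of 11 higher (9.09%) and 0 lower (median 0.01). The higher gene was the transcriptional repressor BCL6, at 504 counts in TRPV3-OE and 205 in parental cells (log2 ratio 1.24). CDKN1B, TRIB1 and CCNG2 had log2 ratios of 0.80, 0.80 and -0.83, or 0.59, 0.60 and -0.11 after subtraction of their neighbours. Of the 3 genes for IGF2 mRNA binding proteins, IGF2BP1 was 3.63-fold lower with 367 counts in TRPV3-OE and 1281 in parental cells, while IGF2BP2 was at -0.30 and IGF2BP3 at 0.26.

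By distance in log2(CPM + 1) over the 2 libraries, the protein-coding genes nearest to IGFBP3 were PODXL (25 counts in TRPV3-OE and 593 in parental), THBS2 (23 in TRPV3-OE and 637 in parental) and SYDE1 (28 in TRPV3-OE and 501 in parental), at distances of 0.39 to 0.46. Those nearest to IGFBP7 were TNFRSF12A, ARL6IP1 and ARHGDIB, at distances of 0.01 to 0.05. With 2 libraries this likeness rests on a level and a ratio alone.

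The labelled cell type was checked against epithelial markers, and 8 of 8 were measured. Of these 0 were at least 2-fold apart, beside 10.7% of all measured genes. They summed to 4981 CPM in TRPV3-OE and 5278 CPM in parental cells. EPCAM had a log2 ratio of 0.55, KRT19 0.45, TP63 -0.41 and ITGB4 -0.79. Some markers of other cell types were lower in TRPV3-OE alongside IGFBP3 and IGFBP6, and their part in those differences was not tested. Of 10 fibroblast and smooth muscle markers 2 were measured, COL1A1 at -0.58 and ACTA2 at -0.52, and the list summed to 22.1 CPM in TRPV3-OE and 33.7 CPM in parental. In it DCN had 0 counts in TRPV3-OE and 5 in parental, THY1 had 2 and 19, and MYH11 had 0 and 2. The other way went PDGFRB, with 4 counts in TRPV3-OE and 2 in parental, COL1A2 with 2 and 1, and PDGFRA with 1 and 0. LUM and COL3A1 had 0 in both. Of 6 endothelial markers CDH5 was measured, at 35 counts in TRPV3-OE and 268 in parental, and the list summed to 3.26 CPM in TRPV3-OE and 16.7 CPM in parental. PECAM1 went the other way, with 23 counts in TRPV3-OE and 14 in parental, and VWF had 0 in TRPV3-OE and 4 in parental. KDR, TEK and CLDN5 had 0 counts in both. The 6 immune markers summed to 0.168 CPM in TRPV3-OE and 0.117 CPM in parental. For CD68 among them, 81.7% of exon bases are shared with another gene on the same strand. Reads there were left out, so its 1 count in each library does not show that it is absent. Of 6 hepatocyte markers, listed because IGFBP1 is a liver product, SERPINA1 was measured, with 463 counts in TRPV3-OE and 2799 in parental cells. TF went the other way, with 1 count in TRPV3-OE and 0 in parental, and ALB had 0 in both.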

How the data were processed

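Each deposited file holds unnormalised read counts per gene, which the authors made with featureCounts 1.5.0-p3, counting by strand, on Ensembl 87 gene models for GRCh38.p7, per the file headers. The headers show no option for reads with several alignments or over several genes, which are left out by default. The submitters' processing notes also name STAR and DESeq2, with no version. From these counts CPM values were computed with TMM scaling in edgeR 4.0.16 (R 4.3.3), with exact Poisson intervals. Log2 ratios carry exact conditional binomial (Clopper-Pearson) intervals, and no model was fitted. A count of 0 in 1 library was set to 0.5 in ratios. The calculation was tested on data simulated with Poisson error alone, which checks the arithmetic and holds no variation between replicates. Symbols came from a gene name table that matched 56948 of the IDs, and biotypes from GENCODE 29.

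The genes, lists and tests were chosen with earlier results of these data known. Named are the 10 genes, TRPV3, up to 4 measured genes per list (by size of the log2 ratio), the 3 genes nearest in level to IGFBP3 and IGFBP7, and measured neighbours on the chromosome. A gene of 1 list is not reported here and was left out of the counts of that list. Other genes were named after their values were seen. Other settings tried were DESeq2 1.42.0 size factors, upper quartile and total counts for scaling, other count minimums and fold limits, a prior count of 5, protein-coding genes alone and subtraction of a local median (50 nearest genes). Computation used Python 3.11.15, pandas 2.3.3, scipy 1.17.1, numpy 2.4.6 and matplotlib 3.10.9.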

Additional observations from a re-analysis of the deposited data

How the results depend on the processing

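No paired analysis was possible because there was a single library on each side, which also means that leaving out a replicate was not possible. IGFBP3 and IGFBP6 were the 2 genes called lower, and 0 were called higher, under every scaling, every count minimum, protein-coding genes alone and subtraction of the 50 nearest genes. Both are protein-coding, with 695 (IGFBP3) and 670 (IGFBP6) summed counts, so the minimums and the protein-coding filter could not drop them. The scalings moved ratios too little to bring either inside 2-fold, so these settings were no strong check. At a 1.5-fold limit 4 were lower, with IGFBP7 and INSR added, and at 4-fold 1, IGFBP3. Of 40 log2 ratios of the 8 genes under other settings, 39 stayed within their counting interval and 0 of the called genes changed sign. The exception was IGF2R, at 0.21 after subtraction of its neighbours. Over all genes 609 of 11466 were higher. With a minimum of 1 count these were 1347 of 22863, with 20 counts 1094 of 13931 and with 500 counts 245 of 8858. At a 1.5-fold limit they were 1455 of 11466, and at a 4-fold limit 151 of 11466. The 614 lower genes became 1121, 942, 323, 1627 and 159 under those settings, which by construction admit more or fewer genes. Other scalings gave 657 to 679 higher and 541 to 561 lower, and moved every log2 ratio by at most 0.06. A difference in IGFBP1, IGFBP2 or IGFBP5 was not detectable at this depth.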

Other observations

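Of the measured genes next to the receptors and binding proteins on the chromosome, SYNM, GTF2IP13 and ENSG00000279806 were called higher. IGFBP3, the neighbour of IGFBP1, was called lower, and the others lay within 2-fold. Over all measured genes 5.31% were higher and 5.35% lower, and whether the neighbours differ from that was not tested. SYNM, an intermediate filament gene next to IGF1R, had 287 counts in TRPV3-OE and 89 in parental cells, a log2 ratio of 1.63 (1.29 to 1.99), beside 0.03 for IGF1R. The pseudogene GTF2IP13, the nearest measured gene on one side of IGFBP1 and IGFBP3, had 83 counts in TRPV3-OE and 36 in parental cells, a log2 ratio of 1.15, while TNS3 on the other side of IGFBP3 had -0.09. ENSG00000279806, next to IGFBP4, had 154 counts in TRPV3-OE and 74 in parental cells, with an interval of the log2 ratio from 0.59 to 1.42. On the sides of IGFBP6, SPRYD3 had a log2 ratio of 0.04 and CSAD 0.31, and POLR2B beside IGFBP7 had 0.35.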
